A study of Mus musculus with 33 samples.

Results

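The 40 genes described here encode ribosome biogenesis factors, nucleolar proteins that modify, cleave and fold the ribosomal RNA precursor and assemble it with ribosomal proteins. They were chosen by name, and all 40 were among the 26621 gene symbols of the count tables. Each of the 40 passed the filter on low counts in all 3 assays, which left 14029 genes in RNA-seq, 14167 in the m6A series and 14255 in the YTHDF2 series. The lowest count of a member in an RNA-seq library was 17, for Rrp12.

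The cells were neural stem cells from the hippocampus of mice at postnatal day 0.5, grown in culture with FGF and EGF. The labels give the genotype as Nestin-WT or Nestin-cKO for Ythdf2, which encodes a protein that binds RNA carrying N6-methyladenosine (m6A), and do not say what Nestin drives. RNA-seq libraries were made after 0, 2 and 4 h with 5 µM of actinomycin D, which blocks transcription, from cells of both labels, with 3 libraries in each of the 6 groups. Untreated WT cells gave 3 m6A pull-downs and their 3 inputs, and 3 YTHDF2 pull-downs, 3 IgG pull-downs and 3 inputs. The labels do not say whether replicates came from separate animals, so that p-values measure the spread between these libraries only.

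Ribosome production starts in the nucleolus, where RNA polymerase I makes a long precursor that carries most of the ribosomal RNAs. Small nucleolar ribonucleoproteins (snoRNPs) of the box C/D class guide methylation of that precursor and those of the H/ACA class guide its pseudouridylation. The small subunit processome then forms around the 5′ part of the precursor and yields the 40S subunit, while a separate series of particles yields the 60S subunit. In dividing stem cells this work takes a large part of the cell's energy. The reader YTHDF2 is known to bring m6A-carrying transcripts to the deadenylation machinery, so that actinomycin D time courses and pull-downs both bear on how long such transcripts last.

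Ythdf2 itself was examined first, and its counts went against the genotype label. In CPM, with totals adjusted by TMM factors, it stood at 219, 253 and 258 in the WT libraries at 0 h and at 3117, 1035 and 736 in those labelled cKO (log2 difference 2.74, SE 0.37, adjusted p = 2.70e-04 by edgeR's quasi-likelihood test with Benjamini-Hochberg adjustment over all genes tested). Every fold change of a gene below is a log2 value from that test or from a named alternative fit. A gene is called higher or lower where its adjusted p is under 0.05. Medians over markers or members in single libraries or replicates are of differences in log2(CPM + 0.5). At 4 h the libraries labelled cKO held 1404 ± 37.0 CPM and WT 70.6 ± 15.6 CPM (SD, n = 3 each). Gene counts do not show whether exons are missing, so genotypes are named below as labelled and every direction between them rests on those labels. Total counts ran from 10257329 to 21353383 in RNA-seq, from 12892222 to 28334300 in the m6A series and from 8419106 to 23097887 in the YTHDF2 series. The 12 neural stem cell markers summed to 14424 to 16866 CPM in WT and to 9299 to 12413 CPM in the cKO label at 0 h. Fibroblast and meningeal markers (12 genes) summed to 14.3 to 24.0 and to 56.5 to 108.7 CPM in that order. Young neuron markers (10 genes) summed to 86.9 to 120.9 CPM in WT and to 30.0 to 47.0 CPM under the cKO label. The median of these markers in replicates 1, 2 and 3 of the cKO label at 0 h was −0.36, −0.54 and 0.02 from the WT mean. For the 12 oligodendrocyte lineage markers it was −1.43, −1.12 and −1.85, while the sums overlapped (274 to 600 CPM, WT 548 to 689 CPM). The 10 mature astrocyte markers had medians of −1.26, −0.66 and −0.81, with overlapping sums (2323 to 3750 CPM, WT 3211 to 4517 CPM). Of 8 microglial markers 5 were at 0 in all 3 WT libraries at 0 h and 5 in all 3 labelled cKO, with Tmem119, Csf1r, C1qa and C1qb in both sets. Replicate 3 of the cKO label stood apart in its 28 proliferation genes, which summed to 1746, 1461 and 1495 CPM at 0, 2 and 4 h, below the 4797 to 7385 CPM of the other cKO-labelled libraries and the 6691 to 8545 CPM of WT.

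The members spanned a wide range of levels. On the deposited TPM scale, which corrects for transcript length and so allows genes to be compared, Npm1 was highest in WT at 0 h, at 1313 ± 84.9 TPM (SD, n = 3). Npm1 encodes nucleophosmin, an abundant nucleolar histone and ribosome chaperone. Next came Nop10, the smallest protein of the H/ACA core, at 909 ± 18.5 TPM, and Nop56, a scaffold of the box C/D core, at 595 ± 34.5 TPM. The pseudouridine synthase Dkc1 (262 ± 15.8 TPM) and the nucleolar GTPase Gnl3, also called nucleostemin (250 ± 13.6 TPM), followed within 1 SD of each other. In all, 13 members reached 100 TPM and 35 reached 10 TPM. The lowest were Nol6, a processome protein (1.90 ± 0.386 TPM), and Rrp12, which takes part in the export of both subunits (1.89 ± 0.511 TPM), and these did not differ beyond their spread. Fibrillarin (Fbl), the methyltransferase that works with Nop56 and Nop58 in the same particle, stood at 14.9 ± 2.10 TPM.

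Most members fell during the transcription block in WT cells, relative to the other transcripts. Between 0 and 4 h, 26 of 40 passed the test as lower and 2 as higher, where 24.2% and 15.6% of all genes tested did. With the replicate number as a block in the fit, 27 were lower and 2 higher, against 29.1% and 23.8%. The median change of the 40 was −1.02 on the log2 scale, against 0.00 over all genes tested. TMM scaling sets most genes near 0. With library size alone or ribosomal protein genes as the reference, the median of all genes moved to −0.33 or −0.72. In these fits 30 or 33 members were lower, against 31.4% or 42.5% of all genes. The 12 neural stem cell markers summed to 25823 to 29506 CPM at 4 h, while their median against the 0 h mean was −0.51, −0.51 and −0.22 in the 3 libraries. The 40 summed to 5169.9 to 5603 CPM at 0 h and to 3658 to 3692 CPM at 4 h. At 2 h, 14 members were already lower and 0 higher, against 13.7% and 3.63% of all genes, and all 14 were also among the 26 lower at 4 h. The blocked fit gave 23 lower at 2 h and 1, Rrp1, higher, against 20.2% and 13.6%. Without WT replicate 1 at 0 h, or 1 or 3 at 2 h, 8 were lower at 2 h, where 8.27% to 10.3% of all genes were. Without all times of WT replicate 1, 2 or 3 the counts were 3, 5 and 3, against 4.89%, 6.3% and 5.29%.

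The largest falls were those of Gnl3, Nop2 and Wdr43. Gnl3 went from 229, 218 and 252 CPM at 0 h through 59.9, 66.6 and 68.7 CPM at 2 h to 28.6, 27.0 and 29.6 CPM at 4 h (log2 −3.04, SE 0.25, adjusted p = 1.33e-07). Every 2 h library was below every 0 h library and above every 4 h library. Nop2, a methyltransferase of the large subunit RNA, went from 56.6, 44.0 and 40.8 through 16.1, 23.4 and 18.6 to 9.73, 5.82 and 4.98 CPM (log2 −2.78, SE 0.36, adjusted p = 1.23e-05). For Wdr43, a scaffold of the early processome, the values were 148, 112 and 97.3, then 34.7, 39.0 and 32.7 and then 21.3, 16.1 and 20.6 CPM (log2 −2.62, SE 0.23, adjusted p = 2.71e-07). The 3 times did not overlap for these genes either. Every 4 h library lay below every 0 h library for 29 members and above for 2, where 33.7% and 29.2% of all genes tested were so separated. All 3 kept their call at 4 h in each of the 15 alternative fits, which included every library and every replicate left out.

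Promoter windows of these 3 genes are shown because they led the fall. Each runs from 250 bases before to 50 bases after a RefSeq start site (GRCm38.p6), 5′ to 3′ along the gene, with any CACGTG, the E-box bound by MYC and related factors, in capitals.
Nop2, chr6:125131633-125131932, plus strand: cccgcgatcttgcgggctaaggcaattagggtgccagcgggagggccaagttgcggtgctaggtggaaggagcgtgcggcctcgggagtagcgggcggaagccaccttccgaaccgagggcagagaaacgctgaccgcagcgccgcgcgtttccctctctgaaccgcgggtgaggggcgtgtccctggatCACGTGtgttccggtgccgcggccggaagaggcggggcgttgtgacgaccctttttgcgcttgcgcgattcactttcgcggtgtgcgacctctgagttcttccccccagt
Wdr43, chr17:71615965-71616264, plus strand: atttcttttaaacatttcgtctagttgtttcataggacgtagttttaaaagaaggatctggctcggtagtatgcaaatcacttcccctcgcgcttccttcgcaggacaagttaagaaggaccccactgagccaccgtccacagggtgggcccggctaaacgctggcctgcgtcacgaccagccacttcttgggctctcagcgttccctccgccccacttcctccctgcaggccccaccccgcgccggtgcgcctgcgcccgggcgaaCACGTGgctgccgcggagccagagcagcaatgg
Gnl3, chr14:31019082-31019381, minus strand: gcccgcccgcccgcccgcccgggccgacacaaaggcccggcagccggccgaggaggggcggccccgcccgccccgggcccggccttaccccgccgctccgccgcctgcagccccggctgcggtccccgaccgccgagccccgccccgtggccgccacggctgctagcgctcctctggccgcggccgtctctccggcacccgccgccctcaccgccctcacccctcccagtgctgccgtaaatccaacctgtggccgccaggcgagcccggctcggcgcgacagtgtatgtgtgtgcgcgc
In Nop2 the E-box starts 60 bases before the start site and in Wdr43 it begins at base 268 of the window, while the Gnl3 window holds no match to these 6 letters. Of the 40 members, 32 had a window in the RefSeq table, and 6 of the 32 (18.8%) held CACGTG, which reads the same on both strands: Nop2, Wdr43, Utp20, Utp18, Nol11 and Pes1. Among the 27025 symbols of that table, 8.09% held it. The median change from 0 to 4 h in WT was −0.97 for those 6 members and −1.12 for the 26 with a window and no match. Rrs1, Fbl, Npm1, Bop1, Rrp12, Utp6, Nol6 and Gnl2 had no entry.

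Among the box C/D core, Nop56 fell from 570, 519 and 584 to 179, 164 and 152 CPM at 4 h in WT (log2 −1.76, SE 0.37, adjusted p = 0.00107) and its partner Nop58 fell less (−1.10, adjusted p = 0.00696). No 4 h library of either reached a 0 h library, and the call of Nop58 was lost without all times of any WT replicate. Fbl of the same particle did not pass (0.21, adjusted p = 0.586). In the H/ACA core, Nop10 rose from 310, 304 and 323 to 501, 528 and 451 CPM (log2 0.66, SE 0.15, adjusted p = 0.00240) and Dkc1 did not pass (−0.15, adjusted p = 0.818). Of the multifunctional nucleolar proteins, the snoRNP chaperone Nolc1 (−1.40) and the RNA helicase Ddx21 (−1.01) fell, whereas nucleolin (Ncl, −0.10, adjusted p = 0.764) and Npm1 (−0.07, adjusted p = 0.874) did not pass. Npm1 was at 1111, 1029 and 1208 CPM at 0 h and at 1039.7, 1059 and 1089.9 CPM at 4 h, with overlapping groups. Ddx21 lost its call without all times of WT replicate 1, and Nop10 without those of replicate 2. The rise of Nop10 and that of Rrp1 (0.65, adjusted p = 0.0125) depended on the scaling. Neither passed with library size alone, and with ribosomal protein genes as the reference both were just below 0 (−0.07 and −0.08).

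In the small subunit group of 15, 12 members fell between 0 and 4 h in WT and 0 rose (median −1.11). After Wdr43 came Utp3 (also known as SAS10; −2.44, adjusted p = 1.00e-04), Utp15 (−2.05, adjusted p = 6.73e-05), Nol10 (−1.95, adjusted p = 5.99e-04) and Heatr1 (−1.86, adjusted p = 1.13e-04), of which Utp15 and Heatr1 belong to the subcomplex that binds the precursor first. Nop14 (−1.54), Rrp12 (−1.28), Nol11 (−1.11), Noc4l (−1.04), Utp6 (−0.85), Utp20 (−0.83) and Bms1, the GTPase of the processome (−0.72), also fell. Utp18 (−0.64), the U3-binding protein Rrp9 (−0.31) and Nol6 (0.35) did not pass. The call of Bms1 was lost without WT replicate 1 or 3 at 0 h or 1 or 2 at 4 h, and that of Utp20 without replicate 1 at 4 h. Both were also lost without all times of any WT replicate, and Rrp12 was without those of replicate 1.

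Of the 16 large subunit members, 10 fell between 0 and 4 h in WT and Rrp1 rose (median −1.07). The polynucleotide kinase Nol9 went from 26.5, 24.7 and 24.2 to 3.01, 4.87 and 5.04 CPM (log2 −2.55, SE 0.37, adjusted p = 3.91e-05). Rrp1b (−1.81), Rrs1, which recruits the 5S particle (−1.55), Nip7 (−1.19), Rrp15 (−1.18), Noc3l (−1.15), Wdr12 (−0.99) and the GTPase Gnl2 (−0.63) fell too. Wdr12 acts in 1 complex with Pes1 and Bop1, and those partners did not pass (0.06, adjusted p = 0.906, and 0.58, adjusted p = 0.164). Nop16 (−0.50), Noc2l, a partner of Noc3l (−0.35), and Mrto4, which precedes the stalk protein P0 on the particle (−0.21), did not pass either, and Nop16 did in the blocked fit. Wdr12 lost its call without any single WT library at 0 or 4 h (adjusted p up to 0.167 over all alternatives). It kept the call in the blocked fit (edgeR adjusted p = 1.08e-04). In WT it stood at 270, 263 and 264 CPM at 0 h and at 133, 124 and 145 CPM at 4 h. The groups share an estimate of the spread, and the cKO-labelled libraries at 0 h were at 381, 171 and 109 CPM. The part of that spread in the lost calls was not tested. Gnl2 lost its call without WT replicate 1 or 2 at 4 h or all times of any WT replicate. Noc3l was lost in the latter settings too, and Rrs1 without all times of WT replicate 1. Rrp1 and its paralog Rrp1b moved in opposite directions, from 31.1, 29.6 and 27.6 to 47.2, 48.6 and 43.1 CPM and from 39.3, 33.5 and 23.3 to 10.04, 8.30 and 8.99 CPM. The groups of 0 and 4 h did not overlap for either gene. The call of Rrp1 was lost without WT replicate 3 at 0 h or without all times of any WT replicate. Without all times of WT replicate 1, 17 members were lower in place of 26, against 14.6% of all genes in place of 24.2%.

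**Figure D1:**
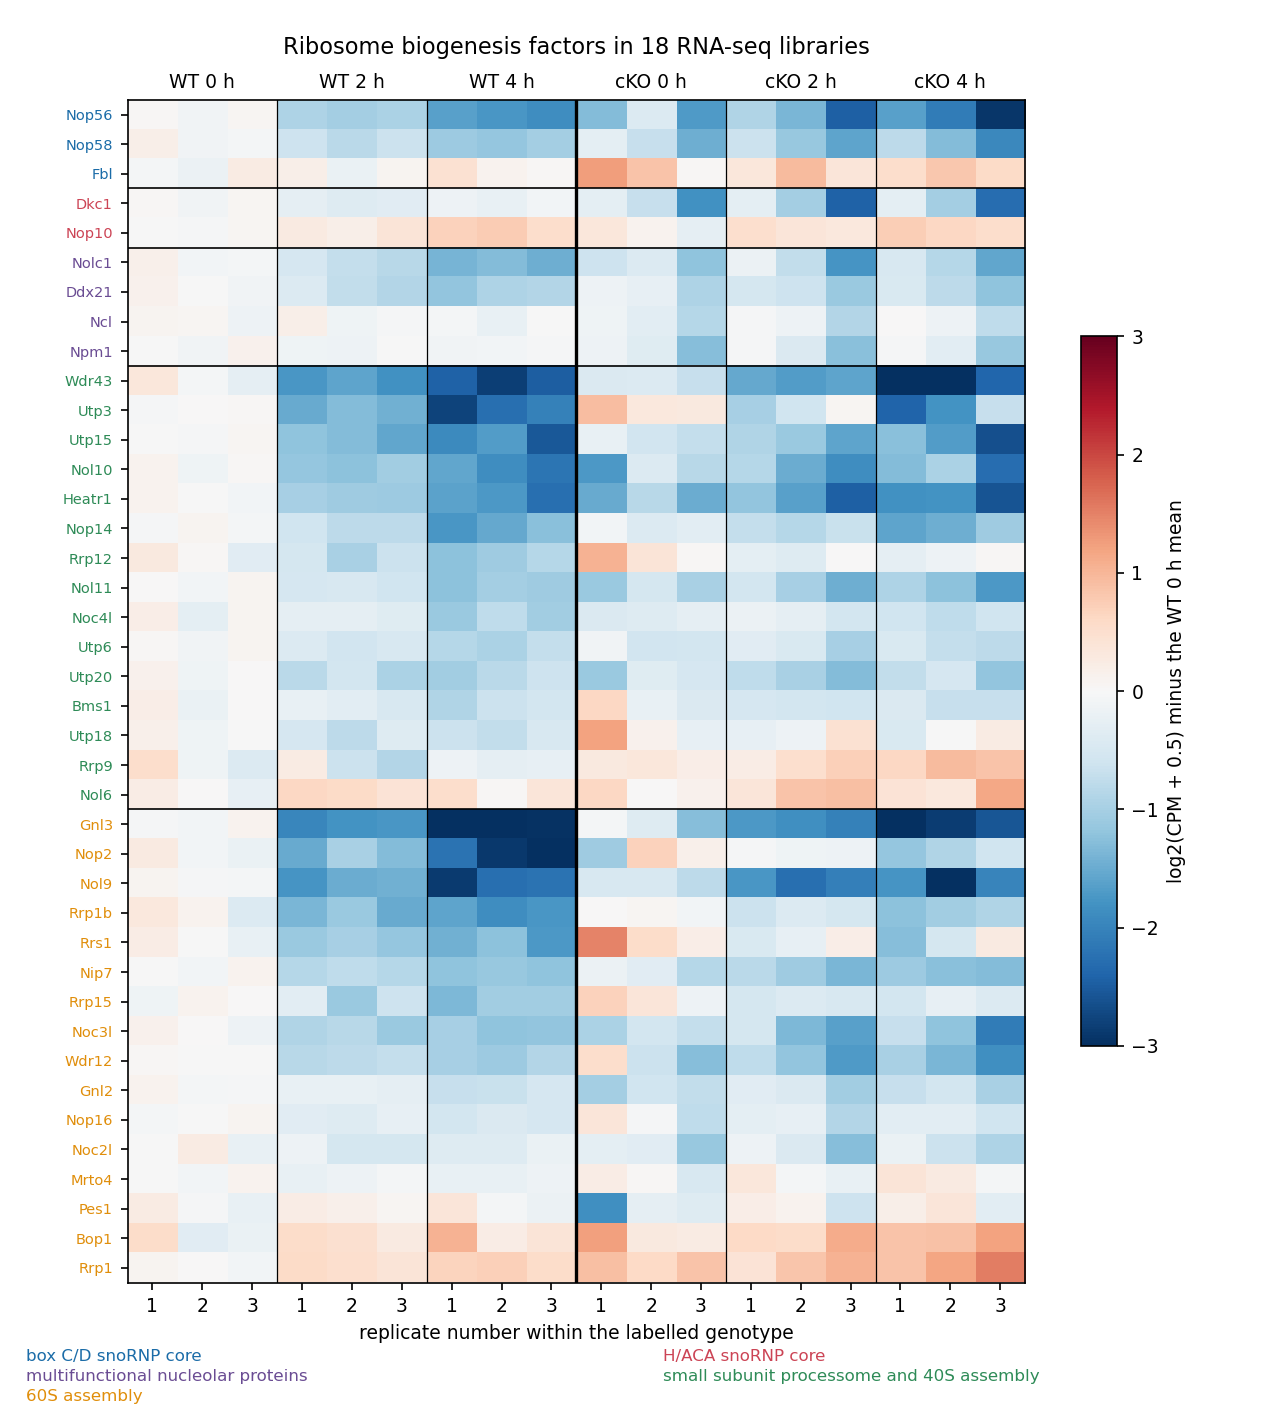
Heat map of the 40 members (rows, coloured by role) in the 18 RNA-seq libraries (columns, by label, time and replicate number), as log2(CPM + 0.5) minus the mean of the 3 WT libraries at 0 h, with red for higher and blue for lower. Most rows turn blue from 0 to 4 h in WT, and replicate 3 of the cKO label is the bluest at 0 h, with a median over members of −0.62 against −0.13 and −0.33 in replicates 1 and 2.

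In the libraries labelled cKO the same time course also lowered members. From 0 to 4 h, 15 members passed as lower and 1, Nop10, as higher, against 18% and 12.1% of all genes, and the median of the 40 was −0.45 (0.08 over all genes tested). All 15 were among the 26 lower in WT, which makes 57.7% of the WT list. With the replicate as a block, 19 were lower and 4 higher (Nop10, Pes1, Rrp1 and Mrto4), against 23.1% and 21.1%. At 2 h, 5 members were lower and 0 higher, against 9.85% and 2.21% of all genes. The blocked fit gave 12 lower and 1 higher at that time, against 15.8% and 9.79%. Without replicate 2 at 4 h the count lower at 4 h was 9, against 14.3% of all genes. Without all times of replicate 2 it was 7, against 11.7%. At 2 h it was 10 without replicate 3 at 0 h and 12 without all times of replicate 3, against 10.8% and 12.8%. It was 3 without replicate 1 or 2 at 0 h, against 7.55% or 7.7%. Without replicate 2 at 2 h or at all times it was 2, against 5.78% or 4.19%.

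Wdr43 fell from 87.0, 88.9 and 72.6 to 13.3, 11.97 and 22.2 CPM in the libraries labelled cKO (log2 −2.39, SE 0.23, adjusted p = 1.02e-06). Gnl3 fell from 225, 178 and 95.4 to 26.6, 32.0 and 38.8 CPM (log2 −2.36, SE 0.24, adjusted p = 1.81e-06), with replicate 3 the lowest at 0 h. Nop14 fell from 41.5, 32.7 and 34.9 to 14.4, 15.5 and 20.8 CPM (log2 −1.10, SE 0.18, adjusted p = 2.43e-04), with no overlap between the times. These 3 had the smallest p-values. Between 0 and 4 h under this label the groups did not overlap for 12 members that fell and 2 that rose. Over all genes tested these shares were 19.4% and 15%. Utp3 (−2.06), Nol9 (−1.76), Utp15 (−1.30) and Rrs1 (−1.27) fell by more than 1 log2 unit as well, and Rrs1 lost its call without replicate 1 at 0 h or 2 at 4 h. Nop2, second in WT by size, changed by −0.97 here (adjusted p = 0.0349), from 22.2, 75.2 and 52.0 through 45.8, 42.8 and 42.3 to 20.5, 24.8 and 30.8 CPM. The 0 h library of replicate 1 lay below every 2 h library, and the call was lost without replicate 2 or 3 at 0 h or replicate 1 or 2 at 4 h. Nop10 rose (0.55, adjusted p = 0.0109), a call lost with library size alone or without all times of replicate 2, and was at −0.15 on the ribosomal protein scale.

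The difference between labels in the rate of change was tested as a slope over 0 to 4 h. Of the 40 members 34 had a positive difference, meaning a slower fall or a faster rise under the cKO label, with a median of 0.13 log2 per hour against 0.02 over all genes tested. No member passed: 0 were called in either direction with edgeR, where 0.00713% of all genes were called higher and 0% lower. DESeq2 called 0 as well, against 0.377% and 0.14% of all genes. At an unadjusted p under 0.05, 9 members were positive, and the share of all genes at that level was not counted. The blocked fit called 1, Nolc1 (0.29 per hour, adjusted p = 0.0272), and 0.463% of all genes as higher. Nop2 had the largest difference, 0.45 log2 per hour (SE 0.12, unadjusted p = 0.00117, adjusted p = 0.203). Its replicates labelled cKO were unlike each other from 0 to 4 h. Replicate 1 went from 22.2 to 20.5 CPM, replicate 2 from 75.2 to 24.8 CPM and replicate 3 from 52.0 to 30.8 CPM. Nol10 (0.35), Nolc1 (0.30), Heatr1 (0.26), Rrp1b (0.19), Noc4l (0.19), Nol11 (0.18), Gnl2 (0.17) and Utp6 (0.15) made up the other 8 under 0.05 unadjusted. All 15 small subunit members had positive differences, where the median over all genes tested was also above 0. Genes of the same libraries are not independent replicates. The slopes share their 0 h libraries with the genotype contrast at 0 h, in which the median of the members was −0.40, and the part of that start in the slopes was not tested. Without all times of replicate 3 labelled cKO the median difference in slope was 0.07, and without replicate 1 of that label at 4 h it was also 0.07. Within replicates, the median member changed by −1.17, −0.93 and −0.83 from 0 to 4 h in WT replicates 1, 2 and 3. In those labelled cKO it changed by −0.33, −0.50 and −0.29. Changes within replicates were not computed over all genes, so these values do not set the members apart from other genes.

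**Figure D2:**
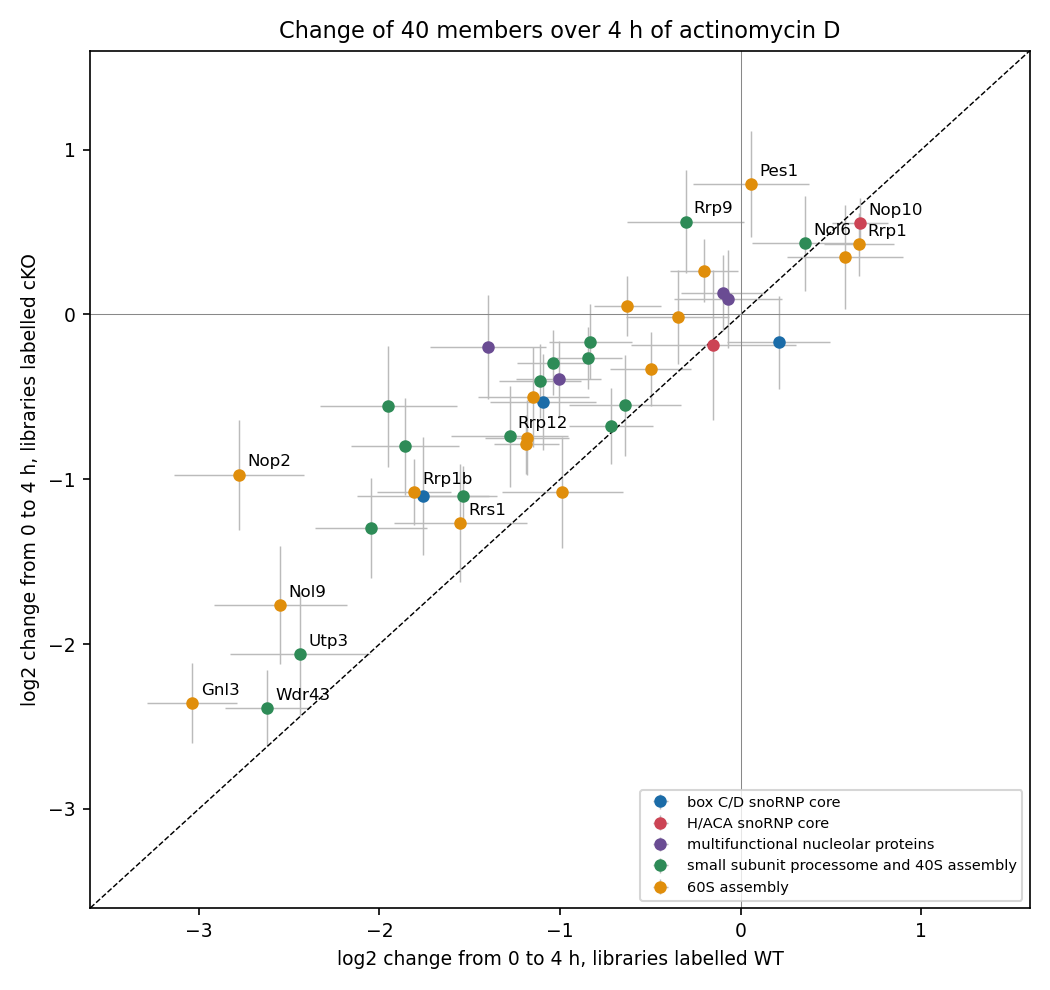
Log2 change of each member from 0 to 4 h of actinomycin D in libraries labelled WT (x axis) and cKO (y axis), with SE bars, coloured by role. The dashed line marks equal changes, and 34 of 40 points lie above it, with Nop2 farthest from it among the large falls.

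Before actinomycin D, at 0 h, 3 members were lower and 1 was higher in the libraries labelled cKO, against 9.89% and 7.71% of all genes tested. The median of the 40 was −0.40 (all genes −0.01), and 27 had a negative difference. For 19 members every cKO-labelled library lay below every WT library, and for 2 every one lay above, where 24% and 17.3% of all genes tested were so separated. Heatr1 stood at 102, 94.5 and 90.5 CPM in WT and at 33.3, 53.9 and 33.9 CPM under the cKO label (log2 −1.25, SE 0.29, adjusted p = 0.0108). Gnl2 stood at 165, 148 and 151 and 75.3, 102 and 92.2 CPM (log2 −0.78, SE 0.18, adjusted p = 0.0110), and Nol11 at 305, 287 and 319 and 140, 211 and 155 CPM (log2 −0.85, SE 0.23, adjusted p = 0.0190). Rrp1 was the exception, with 31.1, 29.6 and 27.6 CPM in WT and 55.6, 45.0 and 53.8 CPM under the cKO label (log2 0.81, SE 0.19, adjusted p = 0.0120). None of these 4 genes overlapped between the labels. Nop56 (−1.03, adjusted p = 0.0554), Nop58 (−0.74, adjusted p = 0.0838) and Fbl (0.83, adjusted p = 0.0528), the 3 members from the box C/D core, did not pass, and Fbl pointed the other way.

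The count at 0 h depended on the scaling and on single replicates, and the share of all genes called moved as well. Relative to ribosomal protein genes 16 members were lower and 0 higher (16.2% and 3.85% of all genes). With RLE factors 3 were lower and 2 higher (8.65% and 8.57%). Without all times of any 1 WT replicate 0 were lower and 0 higher, where 1.6% to 2.56% and 1.23% to 1.37% of all genes were. Without WT replicate 3 at 0 h 0 were higher, against 2.31% of all genes. Nol11 was also lost without replicate 3 labelled cKO or WT replicate 1 or 3 at 0 h. Without replicate 1 of the cKO label at 0 h 8 were lower, and without all its times 11 were, against 10.3% and 16.4% of all genes. Without all times of replicate 3 there were 6 lower and 4 higher, against 13% and 10.1%. The median member was −0.13, −0.33 and −0.62 from the WT mean in replicates 1, 2 and 3 labelled cKO. Replicate 3, the lowest of them, was also the library with the lowest sum of proliferation genes and the highest of fibroblast markers at 0 h. The part of these and of the neuronal, oligodendrocyte and astrocyte markers given above in the result was not tested. Without all times of replicate 3 the median of the members was −0.23. In bulk RNA, fewer cells that make a transcript and less of it per cell cannot be told apart.

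After 2 h the difference between labels was near 0 for the group as a whole, with a median of −0.07 (all genes 0.05). Here 2 members were higher and 0 lower under the cKO label, against 8.52% and 8.54% of all genes. Rrp1b stood at 11.8, 14.2 and 10.6 CPM in WT and at 19.9, 23.3 and 21.7 CPM under the cKO label (log2 0.83, SE 0.20, adjusted p = 0.0113), and Nop2 at 16.1, 23.4 and 18.6 and 45.8, 42.8 and 42.3 CPM (log2 1.17, SE 0.33, adjusted p = 0.0262). Neither gene overlapped between labels. At 2 h 7 members were so separated as higher and 3 as lower, where 20.4% and 20.9% of all genes tested were. Relative to ribosomal protein genes 0 were higher and 2 lower, against 4.2% and 13.7% of all genes, and DESeq2 called 5 higher, against 10.9%. The count higher was 5 without replicate 1 labelled cKO at 2 h and 7 without all its times, against 12.9% and 18.3% of all genes. In those fits 2 and 5 were lower, against 13.1% and 18.6%. The count higher was 0 or 1 without replicate 2 or 3 of that label or WT replicate 1 or 3 at 2 h. It was also 0 or 1 without all times of any WT replicate or of replicate 2 labelled cKO. Over these fits 1.1% to 4.06% of all genes were higher.

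By 4 h, 7 members were higher under the cKO label and 0 lower, against 11% and 9.11% of all genes tested, with a median of 0.19 (all genes 0.08). Nop2 stood at 9.73, 5.82 and 4.98 CPM in WT and at 20.5, 24.8 and 30.8 CPM under the cKO label (log2 1.89, SE 0.35, adjusted p = 0.00206). Nop2 passed in all 18 alternative fits, and each of the other 6 was lost in 9 or more of them. Rrp1b (10.04, 8.30 and 8.99 and 13.1, 15.0 and 16.5 CPM, log2 0.70, SE 0.20, adjusted p = 0.0218) and Rrp9 (4.21, 3.82 and 3.95 and 7.498, 9.53 and 8.89 CPM, log2 1.11, SE 0.32, adjusted p = 0.0225) came next by p-value. In all 3 genes the lowest cKO-labelled library was above the highest WT library. This held for 10 members at 4 h, with 1 separated the other way, where 19.9% and 18.2% of all genes tested were. Rrp12 (1.12, adjusted p = 0.0233), Rrp15 (0.77, adjusted p = 0.0275), Rrs1 (1.144, adjusted p = 0.0375) and Rrp1 (0.58, adjusted p = 0.0428) were the others, so that 5 of the 7 belong to the large subunit group. Rrp12 rested on low levels, 1.38, 1.62 and 1.94 CPM in WT and 3.21, 3.52 and 4.09 CPM under the cKO label.

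Without replicate 2 or 3 labelled cKO or any 1 WT library at 4 h, 1 or 2 members were higher in place of 7. The same held without all times of any WT replicate or of replicate 2 labelled cKO. Over these fits 2.26% to 6.35% of all genes were higher, in place of 11%. With no filter on low counts 3 were higher, against 6.3% of all genes, and relative to ribosomal protein genes 1 was, against 5.27%. Without replicate 1 labelled cKO at 4 h the median of the members was −0.01. The calls at 2 and 4 h share no libraries with those at 0 h but come from the same replicates. Heatr1, Gnl2 and Nol11, the 3 members lower at 0 h, were at −0.19, −0.10 and −0.14 at 4 h and did not pass there.

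**Figure D3:**
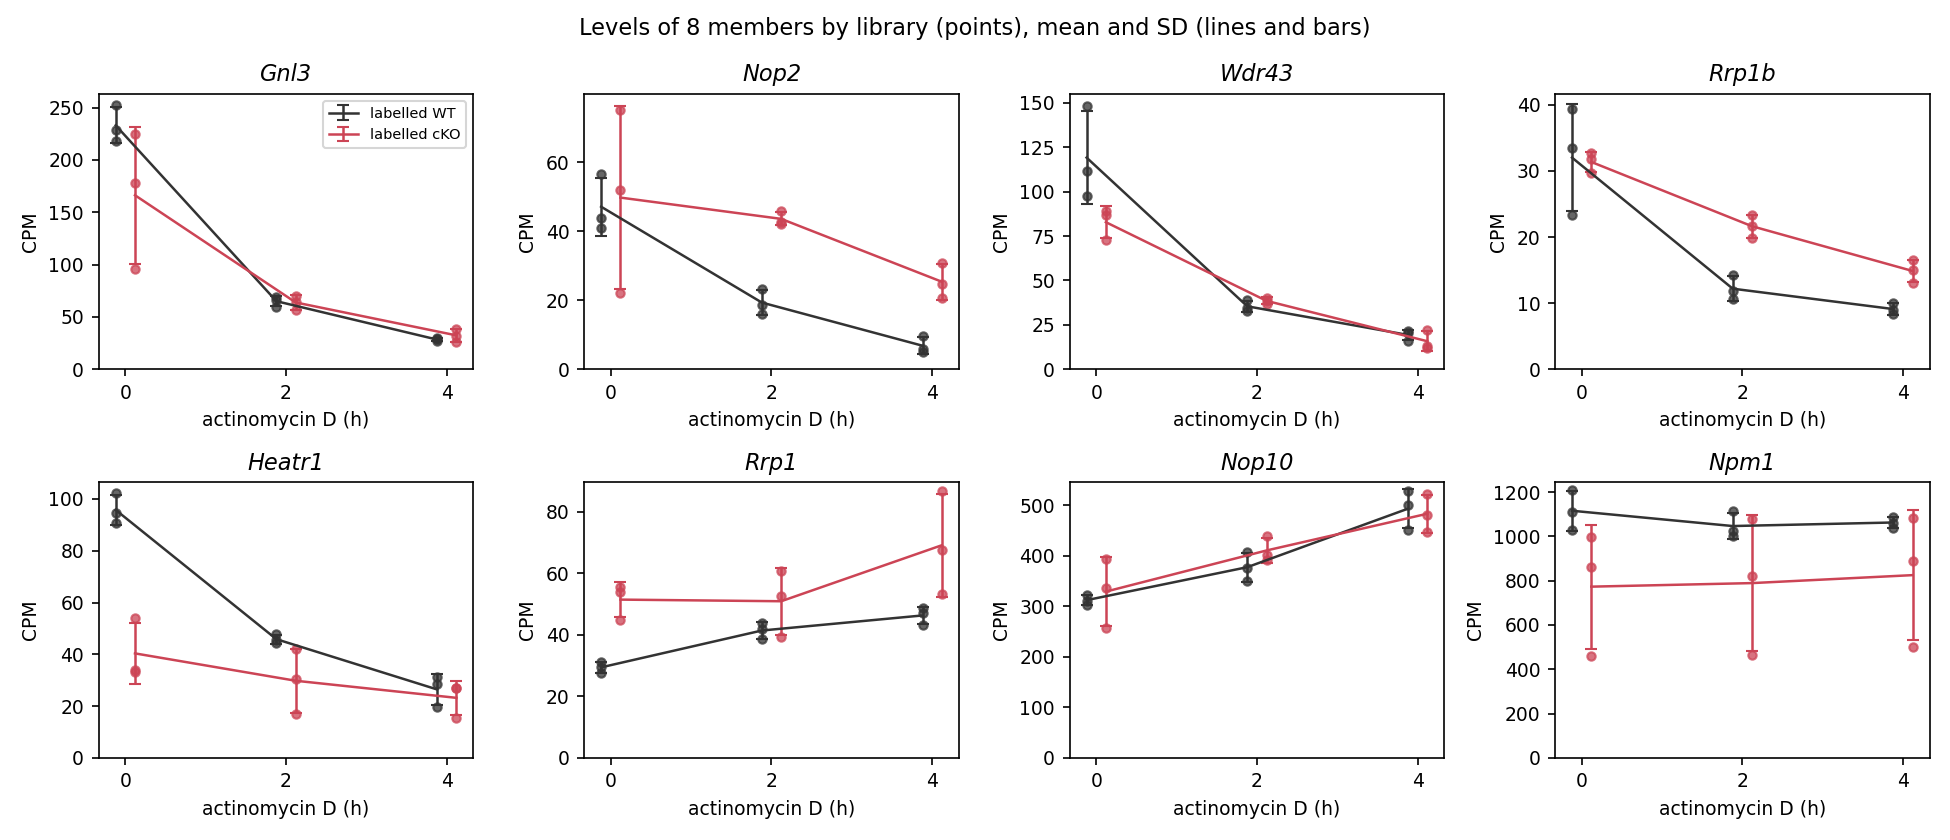
CPM (y axis, from 0) of 8 members at 0, 2 and 4 h of actinomycin D (x axis) in libraries labelled WT (black) and cKO (red), with each library as a point and the mean ± SD as a line with bars. Gnl3 and Wdr43 fall under both labels, Nop2 falls to 4.98 to 9.73 CPM in WT and to 20.5 to 30.8 CPM under the cKO label, and Heatr1 starts lower under the cKO label.

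Other genes of the pathway, 125 in all from lists that leave out the 40, were counted beside them. In WT 73 were lower and 7 higher at 4 h (median −0.97), against 24.2% and 15.6% of all genes tested. Under the cKO label 53 were lower and 9 higher (median −0.45), against 18% and 12.1%. Mphosph10, a processome protein, and Nmd3, the export adaptor of the large subunit, had the smallest p-values, with log2 changes of −3.62 and −3.55 in WT and −2.33 and −3.16 under the cKO label. Of 17 genes for RNA polymerase I and its factors 12 fell in WT at 4 h and 0 rose, among them Taf1b (−2.45) and the shared subunit Polr1c (−2.58). Of 41 other small subunit factors 26 fell and 3 rose, led by Mphosph10 and Utp4 (−3.44). Of 42 other large subunit factors 24 fell and 2 rose, of 14 exosome and trimming genes 7 fell and 0 rose, and of 11 other snoRNP genes 4 fell and 2 rose. Nhp2 was 1 of those 2, a partner of Nop10 in the H/ACA core (0.76, adjusted p = 0.00205), whose call was lost with library size alone and on the ribosomal protein scale.

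Between the labels, the 125 had 17 lower and 3 higher at 0 h (median −0.12), against 9.89% and 7.71% of all genes tested. At 2 h 5 were lower and 6 higher, against 8.54% and 8.52%. At 4 h 2 were lower and 22 higher (median 0.29), against 9.11% and 11% (all genes 0.08). At 0 h Tsr1, a late factor of the small subunit, had the smallest p-value (−1.41, adjusted p = 0.00392), and it lost its call without all times of WT replicate 1. At 4 h the helicase Ddx10 (1.39, adjusted p = 2.01e-04), the processome protein Rcl1 (1.48, adjusted p = 8.89e-04), Nol12 (1.31, adjusted p = 3.45e-04) and the H/ACA assembly factor Shq1 (1.55, adjusted p = 0.00324) were higher in each of 18 alternative fits. The 2 lower genes were the ATPase Nvl (−0.93, adjusted p = 0.0270) and Sbds (−0.50, adjusted p = 0.0487), which act on 60S particles. The first was lost without replicate 2 or 3 labelled cKO or WT replicate 1 or 3 at 4 h, and the second without any of these or WT replicate 2. For the slope 100 of 125 were positive (median 0.10 log2 per hour, all genes 0.02) and 0 passed, against 0.00713% of all genes as higher.

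In the m6A pull-down, which enriches methylated RNA, 7 of 40 members were depleted and 1 was enriched. Over the 40 the median was 0.03 (all genes 0.01), and 6.06% of all genes were higher and 14.3% lower. Nop10 was the most depleted, from 151, 127 and 141 CPM in the inputs to 43.6, 39.4 and 45.5 CPM in the pull-downs (log2 −1.71, SE 0.09, adjusted p = 3.11e-06). Rrp9 went from 17.5, 16.2 and 17.4 to 8.89, 8.79 and 9.31 CPM (log2 −0.92, SE 0.12, adjusted p = 5.35e-04) and Wdr12 from 101, 89.7 and 93.4 to 66.9, 64.7 and 60.9 CPM (log2 −0.56, SE 0.08, adjusted p = 8.66e-04). Every pull-down of these 3 was below every input, which held for 8 members and for 21.1% of all genes tested. Noc4l (−0.72), Fbl (−0.67) and Npm1 (−0.52) were lower too, and these 6 calls were kept in each alternative fit. The other, Pes1 (−0.23, adjusted p = 0.0372), passed in 1 of 11 alternative fits, that with the replicate as a block, and its adjusted p reached 0.868 in the others.

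Utp6 was the member called higher in m6A, at 110, 105 and 104 CPM in the inputs and 142, 120 and 127 CPM in the pull-downs (log2 0.29, SE 0.08, adjusted p = 0.0321). That call was lost without any 1 of the 3 inputs or without pull-down 1 or 3. Without pull-down 2 there were 3 members higher, against 5.89% of all genes. With the replicate as a block, 8 members were higher and 9 lower, shares close to the 17.2% and 20.7% of all genes in that fit. The 7 added as higher were Nolc1, Ncl, Ddx21, Utp15, Utp18, Nop2 and Rrp1b, each between 0.19 and 0.29 log2, and the 2 added as lower were Dkc1 and Heatr1. Scaling to library size alone gave 15 higher and 6 lower, against 25.6% and 9.13% of all genes, and moved the median of all genes to 0.22, so the direction of members near 0 depends on the scaling. Of the members higher under the cKO label at 4 h, Nop2 and Rrp1b were at 0.19 and 0.29 in the m6A pull-down. Neither passed in the main fit. Rrp9 of the same list was depleted in m6A, and Rrp12, Rrp15, Rrs1 and Rrp1 did not pass in either direction. Of the other 125 pathway genes 12 were higher and 28 lower (median −0.02), against 6.06% and 14.3% of all genes. The box C/D core protein Snu13 (−1.21) and the polymerase subunit Polr1h (−1.32) were among the lower and Rrp36 (0.49) among the higher.

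For the YTHDF2 series the labels conflict, since the title of a sample calls Input what its description calls YTHDF2 and the reverse. Columns of the count table follow the descriptions, which were used here. A statement on YTHDF2 against input therefore holds in size and turns its sign if the titles are right. The other comparisons then trade places, so that IgG over input takes the values given for YTHDF2 over IgG with the sign turned, and the reverse.

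Over input, 9 members were higher and 8 lower in the YTHDF2 pull-down, against 30.7% and 17.5% of all genes, and the median of the 40 was 0.02 (all genes 0.23). Nol9 went from 4.81, 4.69 and 5.24 CPM in the inputs to 17.3, 16.8 and 19.0 CPM (log2 1.85, SE 0.18, adjusted p = 2.11e-05). Utp20, a large scaffold protein of the processome, went from 20.7, 19.9 and 14.8 to 45.4, 39.9 and 45.1 CPM (log2 1.23, SE 0.17, adjusted p = 1.70e-04) and Gnl2 from 107, 83.6 and 89.1 to 195, 192 and 244 CPM (log2 1.17, SE 0.17, adjusted p = 1.83e-04). Heatr1 (1.12), Nop56 (0.99), Utp15 (0.86), Rrp1b (0.75), Nop2 (0.55) and Nol11 (0.52) were higher as well. Fbl went from 30.3, 24.3 and 25.7 to 12.6, 12.02 and 11.7 CPM (log2 −1.143, SE 0.16, adjusted p = 2.13e-04), Npm1 from 863, 639 and 956 to 382, 326 and 427 CPM (log2 −1.11, SE 0.20, adjusted p = 7.98e-04) and Nop10 from 156, 135 and 177 to 94.4, 69.0 and 64.5 CPM (log2 −1.04, SE 0.21, adjusted p = 0.00177). For these 6 genes inputs and pull-downs did not overlap. In all, 9 members were so separated as higher and 9 as lower, where 35.1% and 21.1% of all genes tested were. Rrp1 (−0.73), Ncl (−0.66), Nop58 (−0.62), Dkc1 (−0.55) and Gnl3 (−0.50) were lower too. With RLE factors 7 were higher and 11 lower, against 24.9% and 22.5% of all genes. With the replicate as a block 14 were higher and 13 lower, against 38.9% and 24.7% of all genes in that fit. Without input 1 or pull-down 2, 4 were lower in place of 8, against 14.1% or 14.4% of all genes. Nol11, Nop2, Nop58, Dkc1, Ncl and Gnl3 each lost the call when 1 of several single libraries was left out.

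The IgG pull-down, the control for unspecific binding, was set against the same inputs, and 10 members were higher and 6 lower, against 20.2% and 17.0% of all genes, with a median of 0.24 (all genes 0.00). Utp20 stood at 62.0, 57.5 and 51.2 CPM in IgG (log2 1.62, SE 0.17, adjusted p = 6.45e-05), Nol9 at 14.1, 15.3 and 15.9 CPM (log2 1.62, SE 0.18, adjusted p = 7.46e-05) and Gnl2 at 251, 248 and 286 CPM (log2 1.49, SE 0.17, adjusted p = 7.92e-05). Fbl (−0.96), Npm1 (−0.92) and Nop10 (−0.85) were lower. These comparisons share the input libraries, and the values stand side by side for that reason only. With the block 17 were higher and 9 lower in IgG, against 27.8% and 27.3% of all genes. With library size alone 15 were higher and 4 lower, against 23.8% and 12.9%. With the titles' names edgeR called 0 members higher and 0 lower in IgG over input, against 0.33% and 14.3% of all genes, and Utp20, Nol9 and Gnl2 were at 0.39, −0.23 and 0.32.

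Against IgG, no member passed in the YTHDF2 pull-down with the descriptions' names. With edgeR 0 were higher and 0 lower, where 14.3% and 0.330% of all genes were, and at an unadjusted p under 0.05 there were 0 higher and 4 lower. DESeq2 called 0 higher and 4 lower. The median was −0.19 (all genes −0.08), and 31 of 40 were negative. With the replicate as a block 7 were lower, from −0.36 to −0.48 (Ddx21, Rrp9, Utp20, Wdr43, Wdr12, Rrp1b and Gnl3), and 1 was higher (Utp6, 0.34), against 8.9% and 22% of all genes. RLE factors gave 2 lower, against 2.29% of all genes. With the titles' names 6 members were higher and 10 lower against IgG, where 17% and 20.2% of all genes were. Nol9, the member highest over input, was at 0.23 against IgG (adjusted p = 0.422) and Nop2 at −0.03 (adjusted p = 0.937). Among the other 125 pathway genes 7 were higher and 0 lower, against 14.3% and 0.330% of all genes. They included Rcl1 (1.51, adjusted p = 1.52e-04), Imp3 (1.34, adjusted p = 5.05e-04), the polymerase I subunit Polr1g (1.32, adjusted p = 2.50e-04), Urb2 (0.96, adjusted p = 0.00465) and Mak16 (0.54, adjusted p = 0.0330). Rcl1 was also higher under the cKO label at 4 h. The call of Mak16 was lost without any 1 IgG library or without YTHDF2 pull-down 2 or 3. With the titles' names Urb2 was at −0.52 (adjusted p = 0.0577) and Mak16 at −0.57 (adjusted p = 0.0125), both turned in sign, and Rcl1 at 0.51 no longer passed (adjusted p = 0.0515).

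**Figure D4:**
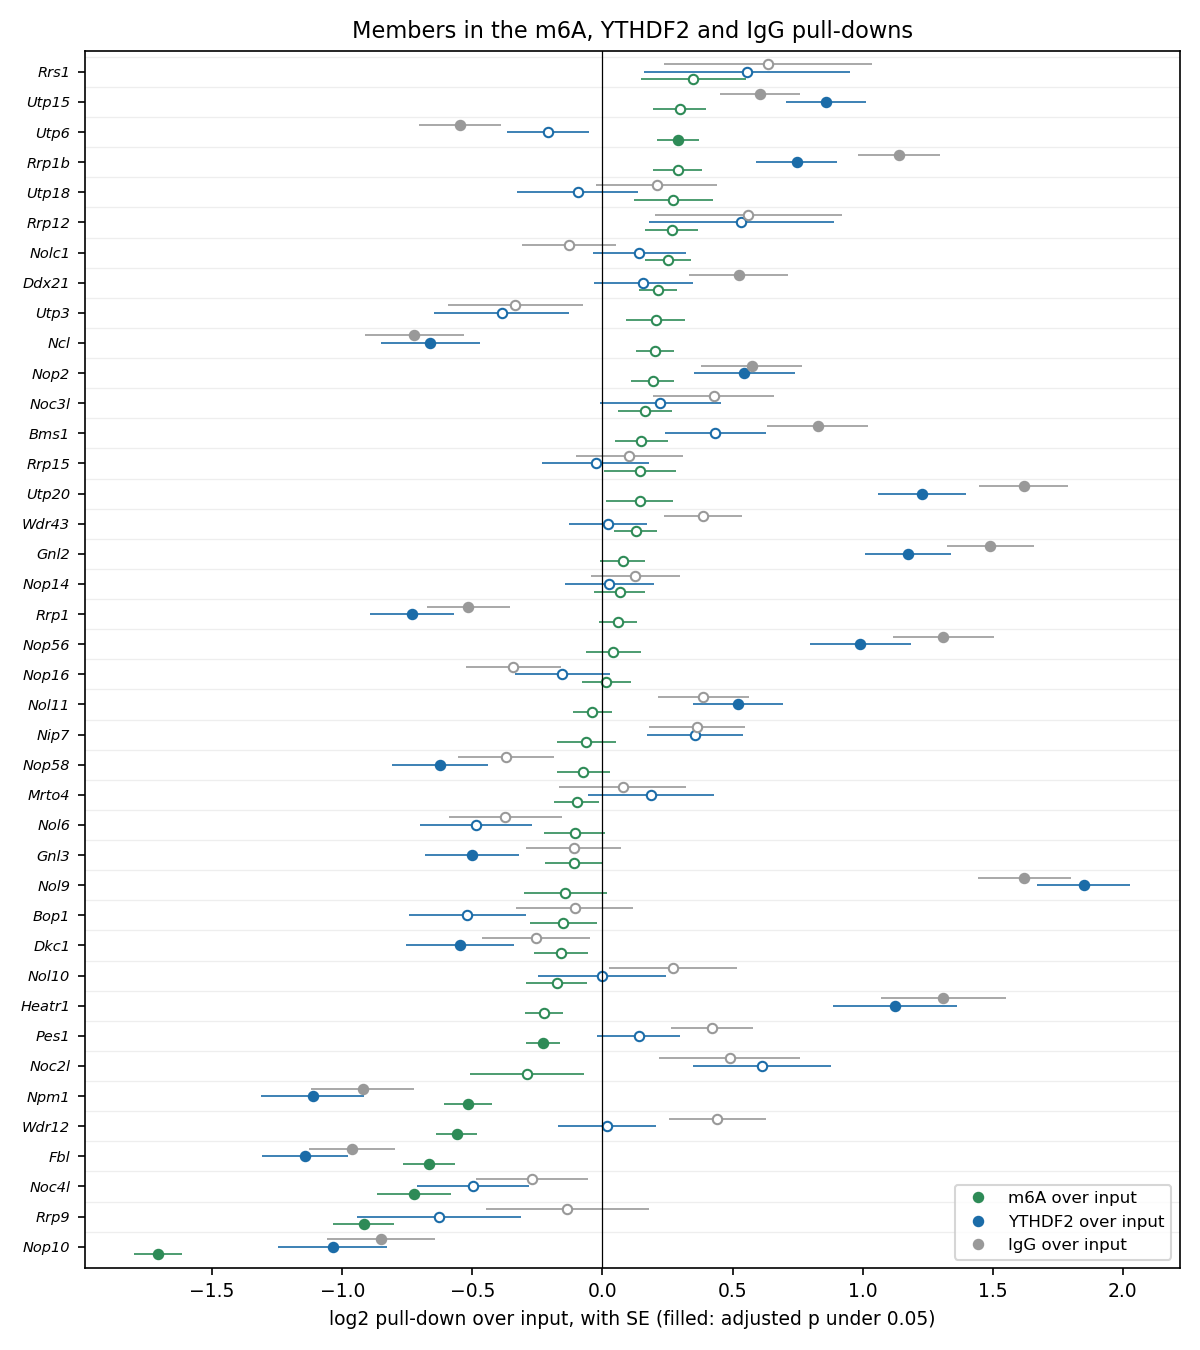
Log2 pull-down over input with SE (x axis) for the 40 members (y axis, ordered by m6A), for m6A (green), YTHDF2 (blue) and IgG (grey), with filled points where the adjusted p was under 0.05. The green points reach −1.71 for Nop10, and Nol9, Utp20 and Gnl2 stand far to the right in both blue and grey.

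Transcript length was a feature that the choice of members did not use. The ratio of counts to TPM within a library gives the length the authors' TPM was computed with, and it was expressed relative to the median of the genes tested in RNA-seq. It ran from 0.241 for Nop10 and 0.322 for Mrto4 to 2.86 for Ncl and 3.06 for Utp20. Across the 40 members, Spearman's rho of length with the log2 values was 0.40 for m6A over input, 0.49 for YTHDF2 over input, 0.48 for IgG over input and 0.03 for YTHDF2 over IgG. With the titles' names the last 3 were −0.49, −0.03 and −0.48. Across all genes with a length the same values were 0.41, 0.33, 0.27 and 0.15. These correlations are across genes of the same libraries, which are not independent replicates. The members with the lowest m6A values, Nop10, Rrp9, Noc4l and Fbl, had relative lengths of 0.241, 0.532, 0.706 and 0.402. Others went against the relation. Wdr12, at 1.17, was also depleted in m6A, and Mrto4, at 0.322, was not called. Ncl, at 2.86, was lower over input in the YTHDF2 pull-down, where Utp20 was higher. For the change from 0 to 4 h in WT, rho was −0.23 over the members and −0.32 over all genes.

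**Figure D5:**
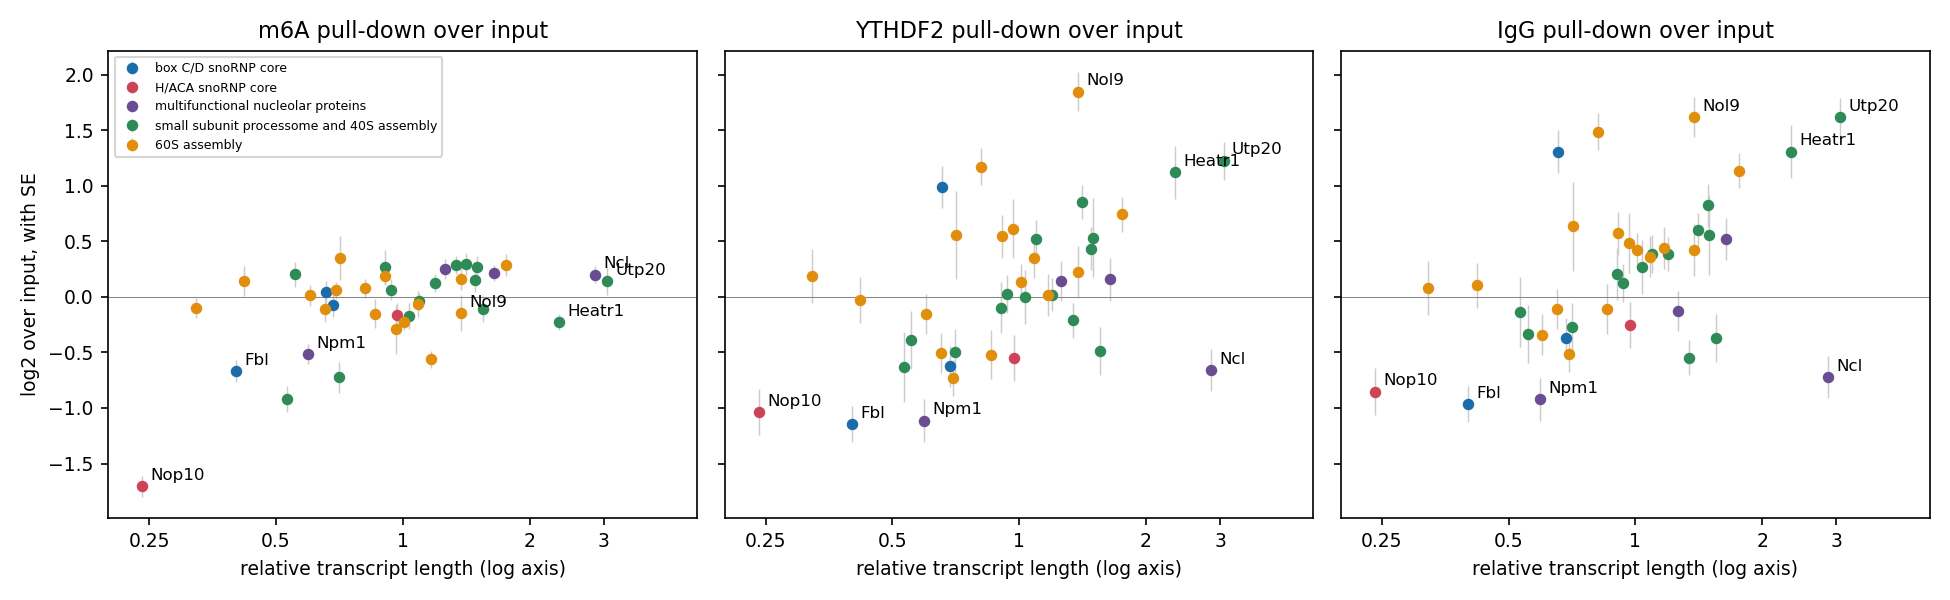
Log2 pull-down over input with SE (y axis) against relative transcript length (x axis, log scale) for the 40 members, coloured by role, in the m6A, YTHDF2 and IgG pull-downs. Nop10, the shortest member, is low in all 3 panels. Among the longest, Utp20 and Heatr1 are high in the YTHDF2 and IgG panels but not in m6A, while Ncl is low in the YTHDF2 and IgG panels.

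Some members also carry other genes within their span. Annotated snoRNA genes lie within 6 of the 40 (Nop56, Nop58, Dkc1, Ncl, Wdr43 and Gnl3), with 5 such genes in Nop56 (chromosome 2, 130274367 to 130279313; GRCm38.p6). The median change from 0 to 4 h in WT was −1.43 for these 6 hosts, which range from −3.04 to −0.10, and −0.998 for the other 34. Gnl3 (chromosome 14, 31012433 to 31019131) overlaps the span of Glt8d1, and Nop56 that of Idh3b. Dkc1, Bop1, Wdr12, Noc2l and Gnl2 overlap other coding genes as well, and since the sources used here do not say whether counting used the strand, reads of overlapping genes may not be separate there. Nop2 (chromosome 6, 125131883 to 125144753), Wdr43 (chromosome 17, 71616178 to 71659031), Heatr1 (chromosome 13, 12395375 to 12438893) and Rrp1b (chromosome 17, 32036162 to 32062865) overlap no other coding gene in that annotation.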

How the data were processed

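The deposited files hold whole-number read counts per gene, not normalized, and TPM values per gene, both made by the authors, 1 column per library. RNA-seq libraries were made by SMART-seq2 and the others by a modified SMART-seq3 protocol, per the labels' protocols. bcl2fastq 2.17.1.14, Trimmomatic 0.32 and STAR 2.5.2a are named in the submitters' processing notes, and the counting program is not given in the sources used here. Counts were tested with edgeR 4.0.16 (quasi-likelihood, TMM scaling, filterByExpr, adjusted p under 0.05) in R 4.3.3, with 1 model for each assay, so that groups share an estimate of the spread. The deposited TPM served only to compare levels between genes and to derive relative lengths. The fits were tested on simulated data. DESeq2 1.42.0, RLE factors, library size alone, a ribosomal protein reference of 84 genes, no filter, a replicate block, the titles' names in the YTHDF2 series, and each library or replicate left out were the alternatives.

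The members and gene lists were chosen with earlier results of these data known. Any member may be named, and every library's value is given for up to 3 called members with the smallest p-values in each direction of a comparison, and for others discussed as exceptions. Of each pathway list, up to 2 genes with the smallest p-values per direction and comparison are named. No 2 libraries of a group differed by as little as sampling noise (the lowest chi-square per gene was 7.095). Same-numbered libraries deviated together in the m6A series (correlations 0.109 to 0.504), in the YTHDF2 series (0.409 to 0.705) and across times within a genotype (0.177 to 0.796), a pairing taken from the numbers in the labels and this check, but not across genotypes (median 0.0137). Blocked counts are therefore printed beside the time courses and pull-downs.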

Additional observations from a re-analysis of the deposited data

How the results depend on the processing

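With 3 libraries a group, low counts (Rrp12 at 17 in 1 library) and p-values near the threshold limit single calls. At gene level, the block kept 140 of 140 calls of named genes, DESeq2 135, RLE factors 133, library size alone 130 and no filter 128. The ribosomal protein reference kept 78 of 91 and turned the sign of 3. With the titles' names in the YTHDF2 series 2 of 38 calls were kept, 25 turned their sign and 11 no longer passed. The leave-out fits kept 873 of 1173. The cause of these changes was not tested. Counts of members follow, and the share of all genes called also moved in these fits and in the leave-out fits. At 0 h between labels, 1 higher became 2 (RLE, library size, DESeq2) or 0 (ribosomal protein reference), and 3 lower became 16 (ribosomal protein reference) or 7 (replicate block, which added Nop56, Nop58, Nolc1 and Utp20). At 2 h, 2 higher became 5 (library size, DESeq2) or 0 (ribosomal protein reference), and 0 lower became 2 (ribosomal protein reference) or 1 (replicate block). At 4 h, 7 higher became 3 (no filter) or 1 (ribosomal protein reference), and the median of 0.19 ranged from −0.0109 (without replicate 1 labelled cKO at 4 h) to 0.206 over the leave-out fits. From 0 to 2 h in WT, 14 lower became 23 (library size, replicate block) or 30 (ribosomal protein reference) and 0 higher became 1 (replicate block, DESeq2). From 0 to 4 h in WT, 2 higher became 0 (library size, ribosomal protein reference), where Nop10 was at −0.0748 and Rrp1 at −0.0834. From 0 to 2 h under the cKO label, 5 lower became 3 (no filter), 18 (ribosomal protein reference) or 12 (replicate block) and 0 higher became 1 (replicate block). From 0 to 4 h under that label, 1 higher became 0 (library size, ribosomal protein reference, where Nop10 was at −0.15) or 4 (replicate block), and 15 lower became 32 (ribosomal protein reference). For the slope, 0 higher became 1 (replicate block). In m6A, 1 higher became 15 (library size), 8 (replicate block) or 4 (DESeq2). For YTHDF2 over input, 9 higher became 14 and 8 lower 13 (replicate block), and the median was −0.15 with RLE factors and with DESeq2. For YTHDF2 over IgG, 0 lower became 2 (RLE), 7 (replicate block), 4 (DESeq2) or 10 (titles' names), and 0 higher became 1 (replicate block) or 6 (titles' names). For IgG over input, 10 higher became 17 (replicate block) or 0 (titles' names), and 6 lower became 9 (replicate block) or 0 (titles' names).

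Leaving out 1 library or replicate gave 0 to 4 higher and 0 to 11 lower at 0 h, 0 to 7 and 0 to 5 at 2 h, 1 to 9 and 0 to 2 at 4 h, 3 to 11 lower from 0 to 2 h in WT, and 0 to 2 higher and 17 to 25 lower from 0 to 4 h in WT. Under the cKO label it gave 0 to 1 higher and 2 to 12 lower at 2 h, and 0 to 2 higher and 7 to 18 lower at 4 h. It gave 0 to 3 higher and 6 lower in m6A, 7 to 9 higher and 4 to 8 lower for YTHDF2 over input, and 8 to 11 higher and 4 to 7 lower for IgG over input.

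With the titles' names, YTHDF2 over input was −0.99 for Nop56, 0.62 for Nop58, 1.143 for Fbl, 0.55 for Dkc1, 1.04 for Nop10, 0.66 for Ncl, 1.11 for Npm1, −0.86 for Utp15, −1.23 for Utp20, −0.52 for Nol11, −1.12 for Heatr1, −0.55 for Nop2, 0.73 for Rrp1, −0.75 for Rrp1b, −1.17 for Gnl2, 0.50 for Gnl3 and −1.85 for Nol9. YTHDF2 over IgG was −0.52 for Urb2 and −0.57 for Mak16, and IgG over input was 0.18 for Fbl, 0.19 for Nop10 and Npm1, −0.25 for Utp15, 0.22 for Rrp1 and −0.23 for Nol9.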
